A study of Homo sapiens with 9 samples.

Results

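The comparison concerned Diff cells, the serum-grown progeny of irradiated glioblastoma stem cells, and the parental line U87, an established human glioblastoma cell line. Members were the 3 RNA-seq libraries of Diff cells and the 3 of U87, chosen by their labels, 6 of the 9 libraries of the series. The other 3 libraries were those of the stem cells themselves (GSCs), and their values are given beside the results without a test. U87 and Diff cells were both kept in medium with 10% fetal bovine serum. GSCs had been derived from U87, kept without serum in B27 medium with bFGF and EGF at 20 ng/ml each, and irradiated in 13 cycles of 5 Gy. To obtain Diff cells, GSCs were put back into serum, and cells of clonal growths were picked and expanded. Irradiation, the passage through stem cell medium and the picking of clones separate Diff cells from U87 together, so their parts cannot be told apart here. The study's statistics section speaks of biological replicates in general, but no source says of the 3 RNA libraries of a line that they were separate cultures, so p-values measure the spread between libraries, which may be technical.

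Expression was deposited as log2(TPM + 1), TPM being a gene's share of the library per length, scaled to a total of 1000000. TPM keeps no read depth, so counting error is unknown. Genes with a mean TPM over 1 in these 6 libraries numbered 22670 of 60606, of which 12278 were protein-coding in RefSeq. Log2 values of libraries of the same line correlated across these genes at 0.966 to 0.970. Transcripts of the mitochondrial genome made up 31.8%, 30.7% and 30.8% of the TPM in Diff libraries and 25.9%, 28.8% and 27.6% in U87 (difference 3.66 percentage points; exact two-sided permutation p = 0.1, and 3 against 3 libraries allow none smaller). Of genes that U87 is known to have lost, CDKN2A did not exceed 0.176 TPM and CDKN2B 0.0341 TPM in any of the 6 libraries. Such low levels cannot tell U87 from another line that lacks these genes, so identity was not tested.

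Repeated irradiation selects for, and can alter, tumor cells in ways that outlast the treatment. Glioblastoma cells in serum lose much of the stem cell program and take up a mesenchymal, matrix-secreting form. Gene groups are therefore described below in the order of the cell's supply of oxygen, sugar and amino acids, its lysosomes and iron stores, its matrix and surface, its signals, and its growth and survival. A gene was called higher or lower when limma gave a Benjamini-Hochberg adjusted p under 0.05 and the log2 fold change, Diff minus U87, exceeded 1 in size. The 1 added to each TPM compresses the fold change of weakly expressed genes.

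In Diff cells 1333 genes were higher and 1524 lower than in U87, which is 5.88% and 6.72% of the tested genes, or 12.6% together. The count of every list below is to be read beside these shares, and some lie near them. Adjusted p alone was under 0.05 for 39.9% of genes, and the values of the lines did not overlap for 55.5%. The median over all tested genes was -0.045 on the log2 scale, and 63.4% of genes lay within 0.5 of zero. Of the protein-coding genes 701 were higher (5.71%) and 728 lower (5.93%). Changes over 4 on the log2 scale were found for 29 higher and 32 lower genes. Among called genes with more than 10 TPM in U87, 249 were higher and 730 lower. A limit on the U87 level alone admits genes that fell more readily, so these counts do not compare the directions.

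**Figure D1:**
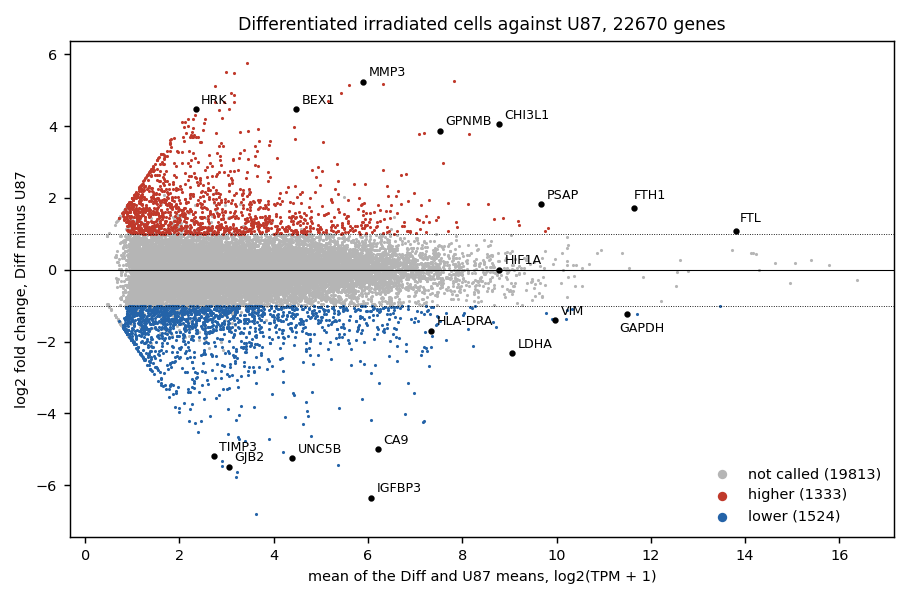
Log2 fold change of Diff cells against U87 for 22670 genes, plotted against the mean level of the lines as log2(TPM + 1); dotted lines mark 1 and -1. The 1333 higher genes are red and the 1524 lower genes blue, and labelled genes span FTL, the most abundant of them, to TIMP3 and GJB2, which were near 0 TPM in Diff cells.

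Several of the largest increases were of secreted or lysosomal proteins. CHI3L1, a secreted chitinase-like glycoprotein that is abundant in mesenchymal glioblastoma, had 2044, 1779 and 1603 TPM in Diff libraries and 107, 116 and 99 TPM in U87. Its log2 fold change was 4.06 (standard error 0.116, limma adjusted p = 7.01e-08), and GSCs lay between the lines at 557 TPM. VGF, a precursor of secreted neuropeptides, had 992, 1139 and 984 TPM in Diff libraries against 81.0, 80.0 and 65.6 TPM in U87. GPNMB, a transmembrane glycoprotein of lysosomes and melanosomes, had 731, 679.9 and 693 TPM against 47.9, 59.9 and 35.8 TPM. CTSK, a collagen-degrading cysteine protease best known from bone resorption, had 612, 513 and 523 TPM against 39.5, 40.7 and 34.6 TPM. None of these 4 genes overlapped between the lines, and the log2 fold changes of VGF, GPNMB and CTSK were 3.77, 3.87 and 3.81. BEX1, a small adaptor protein of neurons, rose from 3.72 ± 0.498 to 104 ± 12.8 TPM (SD, n = 3), a log2 fold change of 4.47. FBXO32, the muscle ubiquitin ligase atrogin-1, rose from 6.01 ± 0.674 to 179 ± 14.1 TPM, and MCF2L from 4.45 ± 0.48 to 84.2 ± 2.7 TPM. SLC22A25, an organic anion transporter gene, had 0.147, 0.0281 and 0 TPM in U87 and 17.5, 17.4 and 20.4 TPM in Diff libraries.

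MYADM and IGFBP3 had the largest decreases, with log2 fold changes of -6.80 and -6.35 and mean levels of 0.174 and 6.44 TPM left in Diff cells. Of the next ones several ended near 0 TPM. GJB2, which encodes the gap junction protein connexin, had 54.6, 60 and 48.4 TPM in U87 libraries and 0.282, 0.0552 and 0.39 TPM in Diff libraries. FAT1, an atypical cadherin, had 49.1, 48.8 and 47.3 TPM against 0.18, 0.0592 and 0.162 TPM. TIMP3, an inhibitor of matrix metalloproteinases that binds to the matrix, had 39.5, 38.5 and 39.7 TPM against 0.126, 0.0891 and 0.09 TPM. All 3 genes were near 0 in every Diff library, with log2 fold changes of -5.48, -5.45 and -5.19 (limma adjusted p = 1.07e-07, 1.52e-08 and 2.47e-08). In GSCs the mean levels were 5.36 TPM for GJB2, 4.45 TPM for FAT1 and 0.719 TPM for TIMP3. CST6, a cystatin that inhibits lysosomal cysteine proteases, fell from 65.4 ± 7.37 to 0.362 ± 0.347 TPM. PAPSS2, which makes the sulfate donor for proteoglycans, fell from 48.6 ± 1.87 to 0.892 ± 0.23 TPM, and DEPP1, a FOXO-regulated gene, from 271 ± 38 to 5.28 ± 0.482 TPM.

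Among abundant transcripts, the iron-storage chains of ferritin dominated the increase. FTL, the light chain, had 20100, 21358 and 20962 TPM in Diff libraries against 9794, 10937 and 8774 TPM in U87, and FTH1, the heavy chain, rose from 1767 ± 83.2 to 5789.6 ± 742 TPM. Together they made up 36.4% of the TPM gained by all called protein-coding genes. PSAP, the precursor of the saposins that activate lysosomal lipid hydrolases, rose from 435 ± 18.5 to 1533 ± 23.2 TPM. MMP14, a membrane-bound collagenase, rose from 593 ± 59.3 to 1252 ± 45.3 TPM, and AHNAK2 from 362 ± 42.3 to 931 ± 54.2 TPM. Without U87 replicate 3 the log2 fold change of MMP14, 1.08 with all libraries, was no longer over 1. The abundant genes that fell included LGALS1, the lectin galectin-1 (5164 ± 299.9 to 2195 ± 280.2 TPM), VIM, the intermediate filament vimentin (1639.8 ± 18.6 to 616 ± 34.7 TPM), HMGA1, a chromatin architectural protein (1769 ± 69.5 to 815 ± 19.3 TPM), and COL6A1, a chain of collagen VI (1329 ± 47.6 to 579 ± 18.7 TPM).

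**Figure D2:**
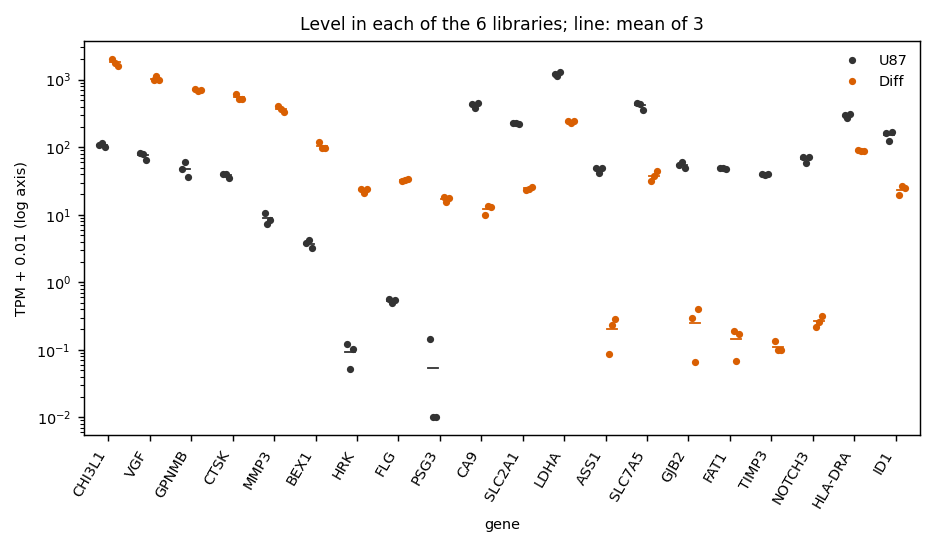
TPM plus 0.01 on a log axis for 20 genes in each of the 3 U87 (black) and 3 Diff (orange) libraries; short lines are means. In each of the 20 genes the lines do not overlap, and the spread within a line is small beside the distance between lines.

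Among the 53 gene lists examined, hypoxia genes had the largest share of members called lower. Under low oxygen the transcription factor HIF1, made of HIF1A and ARNT, escapes hydroxylation by EGLN enzymes and binds the letters ACGTG near its target genes, raising glycolysis, pH control and angiogenesis. Of 42 tested members of a list of HIF regulators and targets, 30 were lower and 0 higher in Diff cells (71.4% lower, against 6.72% of all genes), with a median log2 fold change of -1.56. Of the 33 targets outside glycolysis 29 were lower, and their summed level was 1173 to 1228 TPM in Diff libraries against 5852 to 6026 TPM in U87. CA9, the carbonic anhydrase at the surface of hypoxic cells, had 10, 13.6 and 13 TPM in Diff libraries and 430.2, 375 and 445 TPM in U87. Its log2 fold change was -4.99 (standard error 0.148, limma adjusted p = 8.01e-08). ANGPTL4, an inhibitor of lipoprotein lipase, had 2.06, 1.88 and 1.84 TPM against 80.4, 68.1 and 80.5 TPM. BNIP3, a mitophagy receptor, had 15.8, 13.5 and 15 TPM against 291, 263 and 295 TPM. Every U87 library was more than 10-fold above every Diff library for these genes. VEGFA, the angiogenic growth factor, fell from 304 ± 10.9 to 67.7 ± 2.7 TPM, ADM, the vasodilator adrenomedullin, from 107 ± 6.43 to 22.3 ± 0.992 TPM, and IGFBP1, an insulin-like growth factor binding protein, from 53.7 ± 4.94 to 1.04 ± 0.399 TPM. DDIT4, an inhibitor of mTORC1, fell from 622 ± 82.7 to 32.3 ± 5.92 TPM, although its exons overlap an antisense gene and the strand setting of the counting is not given.

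Among the regulators of the pathway few calls were made. HIF1A had 470.4, 434 and 415 TPM in Diff libraries and 425, 424 and 466 TPM in U87, and the lines overlapped (log2 fold change 0.00, standard error 0.102, limma adjusted p = 0.983). EPAS1, which encodes HIF2A, was at 287 ± 2.88 TPM against 363 ± 36.4 TPM (log2 fold change -0.34, limma adjusted p = 0.00563), short of the fold needed for a call. Of the 9 tested regulators 1 was called, EGLN1, an oxygen-sensing hydroxylase, at 10.7 ± 1.09 TPM against 35.6 ± 2.39 TPM. EGLN1 lies where neighbouring tested genes of chromosome 1 had a median log2 fold change of -0.35. It was named after its value was seen, and it is itself a HIF target. BHLHE40, a target as well, had 406 ± 38 TPM against 479 ± 28.4 TPM and was not called (limma adjusted p = 0.127). GSCs, grown without serum, were at 112 TPM for CA9, 47.7 TPM for BNIP3 and 143 TPM for VEGFA, between the lines in each case. Oxygen and cell density at harvest are not given in the sources used here, and their part was not tested.

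HIF-binding letters were looked up in promoters, taken as 250 bases before to 50 after the RefSeq start on GRCh38.p14. ACGTG on either strand was found in 14 of the 24 called hypoxia genes with a promoter in the table (58.3%), in 50% of all 34 tested ones and in 26.9% of 10126 tested protein-coding genes, and in 21.6% of all 27305 promoters of the table. In the lysosome and autophagy list, whose calls were higher, 43.6% of tested and 50% of called genes held it. A match is a description of the letters, not a bound site. In the glycolysis list, described next and including LDHA and PGK1, 34.6% of tested and 46.2% of called genes held it. The 4 promoters below were chosen because their genes fell, and they do not stand for the lists, in which many genes held no match. Capitals mark ACGTG or its reverse complement CACGT, and where the forms overlap the run CACGTG appears. LDHA, chr11:18394363-18394612 (plus strand), held 5 matches, PGK1, chrX:78104028-78104297 (plus), 3 matches, BNIP3, chr10:131981874-131982073 (minus), 2 overlapping matches and CA9, chr9:35673798-35673977 (plus), 1 match.
LDHA: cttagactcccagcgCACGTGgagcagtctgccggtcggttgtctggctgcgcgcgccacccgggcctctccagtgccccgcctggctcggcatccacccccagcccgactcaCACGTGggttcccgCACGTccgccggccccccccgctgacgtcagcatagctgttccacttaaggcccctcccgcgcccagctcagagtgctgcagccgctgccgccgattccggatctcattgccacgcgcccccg
PGK1: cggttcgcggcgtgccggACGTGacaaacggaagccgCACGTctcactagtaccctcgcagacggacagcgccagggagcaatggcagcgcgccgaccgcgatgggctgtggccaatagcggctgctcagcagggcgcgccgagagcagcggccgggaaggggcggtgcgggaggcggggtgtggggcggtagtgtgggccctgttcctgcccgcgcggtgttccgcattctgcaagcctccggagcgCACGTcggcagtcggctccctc
BNIP3: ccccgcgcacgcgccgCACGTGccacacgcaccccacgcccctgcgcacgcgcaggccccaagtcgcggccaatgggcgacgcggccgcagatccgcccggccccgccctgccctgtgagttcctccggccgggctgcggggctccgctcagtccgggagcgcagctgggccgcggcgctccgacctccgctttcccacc
CA9: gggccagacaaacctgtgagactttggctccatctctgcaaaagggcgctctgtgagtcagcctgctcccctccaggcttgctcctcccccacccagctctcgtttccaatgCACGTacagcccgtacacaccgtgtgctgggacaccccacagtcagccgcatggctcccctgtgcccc

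Genes of glucose uptake and glycolysis were called in the lower direction or not at all. This pathway turns glucose to pyruvate and, through lactate dehydrogenase, to lactate, which leaves the cell through monocarboxylate transporters. Of 28 tested members 14 were lower, 0 higher (50% lower) and 14 not called, with a median log2 fold change of -1.03, and their summed level was 5972 to 6425 TPM in Diff libraries against 13690.4 to 14149.6 TPM in U87. SLC2A1, the glucose transporter GLUT1, had 23.3, 24.2 and 26.0 TPM in Diff libraries and 231, 226 and 217 TPM in U87. LDHA, a lactate dehydrogenase chain, had 242, 228 and 243 TPM against 1195, 1137 and 1278 TPM. SLC16A3, the lactate exporter MCT4, had 1.12, 1.01 and 0.582 TPM against 48.6, 41.2 and 50.1 TPM. No library of these 3 genes overlapped, and the log2 fold changes were -3.15, -2.33 and -4.65 (limma adjusted p = 5.68e-06, 2.02e-07 and 1.13e-07). PGK1 and GAPDH, enzymes of the middle of the pathway, had 144 ± 12.7 and 1889 ± 90.5 TPM against 628 ± 11.3 and 4394 ± 34.2 TPM. PDK1, a kinase that shuts pyruvate out of mitochondria, fell from 40.8 ± 1.64 to 6.5 ± 0.512 TPM. PKM, pyruvate kinase, was at 1269 ± 55.8 against 1747 ± 82.7 TPM, a log2 fold change of -0.46 (limma adjusted p = 0.000818), and GPI at 119.6 ± 6.87 against 133 ± 4.03 TPM (limma adjusted p = 0.169), so neither was called. HK2, a hexokinase, fell from 194 ± 16.1 to 51 ± 2.38 TPM, but its 50 nearest tested genes on chromosome 2 had a median of -0.80 themselves.

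In the respiratory chain few genes were called. Of 52 tested nuclear genes 28 were higher and 2 lower at adjusted p alone, against 18.8% and 21.1% of all genes. Their summed level was 4236 to 4426 TPM in Diff libraries against 3320.4 to 3519.5 TPM in U87. The median log2 fold change was 0.32, and with the fold limit 2 were called higher and 0 lower. These were SDHD, the membrane anchor of succinate dehydrogenase (12.8 ± 0.804 to 32.3 ± 3.18 TPM), and NDUFA4, a cytochrome oxidase subunit (46.3 ± 4.96 to 97.4 ± 5.1 TPM). SDHD lies in the higher part of chromosome 11 described further on, where the local median was 0.54. NDUFA4 had no RefSeq position, so no local median was taken for it. Its log2 fold change of 1.06 was no longer over 1 with a pseudocount of 5. ATP5F1B, the beta chain of ATP synthase, was at 636 ± 11.1 against 444 ± 16.8 TPM, a log2 fold change of 0.52 (limma adjusted p = 2.96e-05). None of the 13 genes of the mitochondrial genome was called by limma (6 at an unadjusted p under 0.05), and their median was 0.27.

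Genes of amino acid supply were lower as well, most often among ATF4 and its targets. ATF4 is the transcription factor that cells raise when amino acids run short or proteins misfold, and its targets import and synthesize amino acids. Of 41 tested members of this list 17 were lower and 1 higher (41.5% lower), and of the 19 genes listed as ATF4 and its targets 12 were lower, with a median of -1.51. DDIT4, described above with the hypoxia genes, is among these 19 and had their largest change. Of 13 tested arginine and polyamine genes 2 were lower and 1 higher, with a median of -0.07. SLC7A5, the large neutral amino acid transporter LAT1, had 31.9, 37.2 and 44.8 TPM in Diff libraries and 458, 436 and 353 TPM in U87. SLC7A11, the cystine importer that feeds glutathione, had 5.78, 5.0 and 7.29 TPM against 50, 42.3 and 52.1 TPM. ASS1, argininosuccinate synthase, needed to make arginine, had 0.077, 0.226 and 0.274 TPM against 48.8, 41.8 and 49.6 TPM. The log2 fold changes were -3.42, -2.81 and -5.32 (limma adjusted p = 8.42e-07, 2.41e-06 and 2.83e-08). In GSCs the mean levels were 56.5 TPM for ASS1, 13.7 TPM for SLC7A5 and 1.39 TPM for SLC7A11. SLC6A9, a glycine transporter, fell from 24.3 ± 0.793 to 1.56 ± 0.353 TPM and CHAC1, which degrades glutathione, from 38.6 ± 14.3 to 4.6 ± 0.501 TPM. The member that rose was NOS3, an arginine-consuming nitric oxide synthase, from 0.0738 ± 0.0529 to 5.5 ± 0.401 TPM; it was named after its value was seen. SMS, spermine synthase, and CEBPB, a partner of ATF4, had log2 fold changes of -0.93 and 0.67 and were not called.

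Among lysosomal genes calls were made in 1 direction. Lysosomes break down proteins, lipids and whole organelles delivered by autophagy, and many of their genes share the letters CACGTG, which the factors TFEB, TFE3 and MITF bind. Of 51 tested members 12 were higher and 0 lower (23.5% higher, against 5.88% of all genes) and 39 were not called, with a median of 0.44, and 31 had a positive change at adjusted p alone. Among the 31 lysosomal members apart from autophagy genes the median was 0.68. ATP6V0D2, a subunit of the proton pump that is typical of osteoclasts and macrophages, had 42.6, 44.2 and 44.8 TPM in Diff libraries and 3.28, 3.58 and 1.64 TPM in U87. CTSD, the aspartic protease cathepsin D, had 211, 236 and 234 TPM against 92.6, 98.6 and 78.0 TPM. TPP1, a tripeptidyl peptidase, had 353, 349 and 372 TPM against 156, 187 and 130.1 TPM. No Diff library reached down to a U87 library in these genes (log2 fold changes 3.59, 1.34 and 1.19). CTSF, cathepsin F, rose from 5.3 ± 0.487 to 19 ± 0.513 TPM and GABARAPL1, an autophagosome protein, from 7.36 ± 0.541 to 18.2 ± 1.28 TPM. LAMP1, the main protein of the lysosomal membrane, was at 330.3 ± 18 against 278 ± 16.2 TPM (log2 fold change 0.25) and CTSB, cathepsin B, at 354 ± 8.67 against 219.9 ± 14.8 TPM (0.69), so neither was called. NPC1 and NPC2, which carry cholesterol out of lysosomes, rose from 146 ± 23.2 and 39.4 ± 1.52 TPM to 523 ± 13.5 and 122 ± 7.06 TPM. Of 19 tested genes of sterol synthesis, by contrast, 0 were higher and 1 was lower: HMGCS1, at 13.5 ± 1.27 against 29.8 ± 4.01 TPM.

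CACGTG was present in the promoters of 4 of the 8 higher lysosomal and autophagy genes with a promoter in the table (50%), in 10 of the 39 tested ones (25.6%), in 10.1% of tested protein-coding genes and in 7.43% of all promoters of the table. These letters contain ACGTG, and in the hypoxia list 23.5% of tested genes held them. Promoters were at hand for 39 of the 51 tested members, too few for a full comparison, so the shares are a description only. The promoters of CTSD, chr11:1763878-1764057 (minus strand), and CTSF, chr11:66568557-66568746 (minus), are shown as examples, with CACGTG in capitals.
CTSD: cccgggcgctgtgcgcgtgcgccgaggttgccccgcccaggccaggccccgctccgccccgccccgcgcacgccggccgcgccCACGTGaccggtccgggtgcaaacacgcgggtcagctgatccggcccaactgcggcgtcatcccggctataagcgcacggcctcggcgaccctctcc
CTSF: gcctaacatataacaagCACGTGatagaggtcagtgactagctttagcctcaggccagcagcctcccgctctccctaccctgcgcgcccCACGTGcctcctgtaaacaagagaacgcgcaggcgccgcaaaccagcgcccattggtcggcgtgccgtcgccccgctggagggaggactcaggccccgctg

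Ferritin stood out among genes of iron and redox control. Of 10 tested iron genes 3 were higher and 0 lower, and their summed level, nearly all ferritin, was 26825 to 29437 TPM in Diff libraries against 11306 to 13592 TPM in U87. SOD3, the extracellular superoxide dismutase, had 207, 236 and 227 TPM against 57.9, 62.7 and 54.8 TPM (log2 fold change 1.91, limma adjusted p = 1.28e-06). Of 26 tested NRF2 and glutathione genes 1 was higher and 7 were lower, among them SLC7A11 and CHAC1 above. Ferritin has many processed pseudogenes, and reads they share with FTL and FTH1 could be split by the counting.

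The matrix that the cells transcribe changed in composition. Collagens, laminins and elastic fibers form the scaffold that cells hold through integrins and cut with proteases. Of 21 tested collagen chains 6 were lower and 2 higher, with a median of -0.79, and of 35 elastic fiber and matricellular genes 11 were lower and 6 higher. COL1A1, a chain of collagen I, had 150.5, 159.6 and 159.7 TPM in Diff libraries and 500.4, 452 and 539.9 TPM in U87, whereas COL1A2, its partner chain, had 295, 286 and 296 TPM against 249, 225 and 262 TPM. The log2 fold changes of the pair were -1.66 (limma adjusted p = 3.8e-06) and 0.25 (limma adjusted p = 0.0249), and COL1A2 lies on chromosome 7 where the local median was 0.45. COL5A1 fell from 181 ± 5.25 to 23.9 ± 1.4 TPM and COL13A1, a transmembrane collagen, from 15.9 ± 1.49 to 0.839 ± 0.237 TPM. FBN1, fibrillin of microfibrils, fell from 333 ± 28 to 68.3 ± 2.32 TPM in a part of chromosome 15 with a local median of -0.48. FBLN5, which assembles elastic fibers, went the other way, from 0.646 ± 0.136 to 47.3 ± 1.98 TPM, as did LUM, the proteoglycan lumican, from 1.36 ± 0.542 to 24.3 ± 2.46 TPM, CCN3, a matricellular protein, from 14.2 ± 4.49 to 112 ± 7.83 TPM, and COL11A1, from 0.284 ± 0.112 to 3.23 ± 0.325 TPM. LUM was at 0.841 TPM in GSCs, so its level in Diff cells was above both other lines. FN1, fibronectin, was at 916 ± 57.6 against 1556 ± 94.6 TPM, a log2 fold change of -0.76. LOXL2, a collagen crosslinker, fell from 345 ± 11.2 to 37.9 ± 2.59 TPM in a stretch of chromosome 8 with a local median of -1.10.

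Single laminin and integrin chains changed in opposite directions. LAMA1, the laminin alpha chain of early basement membranes, had 32.3, 31.0 and 31.9 TPM in Diff libraries and 2.58, 2.64 and 1.66 TPM in U87, while LAMA5 had 1.23, 1.03 and 1.19 TPM against 15, 12.4 and 16.7 TPM. Both changes were called (log2 fold changes 3.33 and -2.86). Of 18 tested integrin chains 5 were higher and 4 lower. ITGAX, the alpha chain CD11c of leukocytes, had 139, 140.2 and 139.7 TPM against 28.4, 29.0 and 21.0 TPM, and ITGB5 rose from 46.6 ± 1.02 to 121 ± 4.54 TPM. ITGB1, the beta chain shared by most matrix receptors, fell from 144 ± 6.95 to 43.6 ± 4.1 TPM in a stretch of chromosome 10 with a local median of -0.79, and ITGA2, a collagen receptor chain, from 94.6 ± 11.5 to 31.9 ± 3.3 TPM. ITGA3, the most abundant chain, was at 1434 ± 20.3 against 1304 ± 62.5 TPM and was not called (limma adjusted p = 0.221). Among 43 tested proteases and inhibitors 9 were higher and 7 lower. MMP3, stromelysin-1, whose increase led all protein-coding genes, had 402, 369 and 329 TPM against 10.5, 7.39 and 8.47 TPM. It lies in the higher part of chromosome 11, where the local median was 0.56. ADAM8 fell from 38.4 ± 5.39 to 1.38 ± 0.0807 TPM, and F3, tissue factor, which starts clotting, from 90.9 ± 6.71 to 6.18 ± 1.06 TPM. TIMP1, an abundant inhibitor, did not change detectably (1308 ± 96.9 against 1107 ± 25.6 TPM, limma adjusted p = 0.11).

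Antigen presentation by class II was lower. MHC class II molecules show peptides to helper T cells, and CIITA is their master activator. Of 10 tested class II genes 7 were lower and 0 higher, and of 15 class I genes 0 were called. HLA-DRA had 92.2, 87.8 and 86.8 TPM in Diff libraries and 297, 270 and 308 TPM in U87, and CD74, the invariant chain, had 98.1, 105 and 97.2 TPM against 299, 278 and 309 TPM. The log2 fold changes were -1.70 and -1.55 (limma adjusted p = 9.31e-07 and 1.11e-06), and GSCs were lower still at 23.7 and 34.8 TPM. CIITA fell from 18.8 ± 1.85 to 8.52 ± 0.0378 TPM, a log2 fold change of -1.05 that did not exceed 1 in size without U87 replicate 3. B2M, the light chain of class I molecules, was at 749 ± 37.4 against 1007 ± 70.1 TPM (log2 fold change -0.43, limma adjusted p = 0.0119) and was not called. HLA genes are polymorphic and share reads with their paralogs, which makes single values uncertain. Among leukocyte markers PTPRC and AIF1 stayed under 0.14 TPM in every library, while the 5 macrophage and microglia markers summed to 11.1 to 13.9 TPM in Diff libraries and 16.2 to 19.5 TPM in U87, lower in Diff cells without overlap, with CSF1R, a receptor of macrophages, at 9.77 TPM against 15 TPM and not called. Their part in the class II difference was not tested. In bulk RNA, fewer cells expressing a gene and less RNA per cell cannot be told apart.

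Among 27 tested cytokine and chemokine genes 9 were higher and 4 lower. IL1RN, the antagonist that blocks the interleukin-1 receptor, had 56.1, 46.9 and 43.1 TPM in Diff libraries and 2.26, 2.7 and 1.9 TPM in U87. LIF, a cytokine of the interleukin-6 family, had 84.2, 81.5 and 85.2 TPM against 12.4, 10.1 and 12.7 TPM. CSF1, the macrophage growth factor, had 250, 270.4 and 272 TPM against 59.2, 63.1 and 55.1 TPM. In each case every Diff library was at least 3-fold above every U87 library, and the means of GSCs (22.1, 23.2 and 135 TPM) were below those of Diff cells. CCL26, an eosinophil chemokine, rose from 2.27 ± 0.297 to 19.4 ± 1.78 TPM and was at 0.775 TPM in GSCs. Of 38 interferon-stimulated genes and regulators 5 were higher (13.2%, against 5.88% of all genes) and 3 lower (7.89%, near the 6.72% of all genes). STING1, the sensor of cyclic dinucleotides, rose from 1.05 ± 0.0489 to 4.93 ± 0.415 TPM and IFI44L fell from 9.68 ± 0.135 to 2.53 ± 0.351 TPM.

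In signaling pathways single members were called. In BMP signaling, SMAD proteins carry the signal to targets such as the ID genes, which block neural differentiation factors. Of 10 tested TGF-beta and BMP targets 4 were lower and 0 higher, and of 11 receptors 1 was lower and 2 were higher. ID1 had 19.5, 26.6 and 24.6 TPM in Diff libraries and 161, 124 and 166 TPM in U87 (log2 fold change -2.62, limma adjusted p = 4.33e-06), and GSCs had 1.36 TPM. SMAD9, a transducer, fell from 8.29 ± 0.551 to 1.43 ± 0.144 TPM, and SMAD6, an inhibitor, from 14.1 ± 0.578 to 5.29 ± 0.327 TPM. In Notch signaling, NOTCH3 had 0.21, 0.247 and 0.308 TPM against 70.9, 59.3 and 71.4 TPM and the ligand JAG1 fell from 11.3 ± 0.556 to 4.89 ± 0.0991 TPM. NOTCH2, the receptor with the highest level, was at 293 ± 8.43 against 224 ± 10.2 TPM (log2 fold change 0.39), and 0 of 8 Notch targets and modifiers were called by limma (4 at an unadjusted p under 0.05).

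WNT genes included more increases, with 8 of 28 tested members higher and 2 lower. These are 28.6% and 7.14%, against 5.88% and 6.72% of all genes, so the share lower was near that of all genes. RSPO3, a secreted enhancer of WNT receptors, had 19, 17.7 and 16.4 TPM in Diff libraries and 1.0, 0.931 and 1.17 TPM in U87. RNF43, SP5 and TCF7, which are target genes of the pathway and partly act in its feedback, rose from 0.109 ± 0.0339, 1.86 ± 0.457 and 34.1 ± 2.65 TPM to 3.59 ± 0.39, 9.31 ± 0.258 and 99.7 ± 1.89 TPM. DKK1, a secreted WNT inhibitor, rose from 1.28 ± 0.0236 to 8.62 ± 1.28 TPM. Among 39 growth factors and receptor kinases 3 were higher (7.69%, near the share of all genes) and 8 lower (20.5%). MDK, the heparin-binding growth factor midkine, had 54.8, 46.9 and 46.0 TPM against 3.46, 4.23 and 2.9 TPM. PDGFRB, the receptor of PDGF-B, had 12.1, 11.6 and 11.4 TPM against 58.5, 52.4 and 59.0 TPM. These were the largest increase after EDN1 and the largest decrease of a receptor (log2 fold changes 3.48 and -2.18). Of 45 axon guidance genes 11 were lower and 7 higher. UNC5B, a netrin receptor, fell from 129 ± 15.4 to 2.45 ± 0.637 TPM, PLXNA2, a semaphorin receptor, from 26.5 ± 1.17 to 2.53 ± 0.109 TPM, and SEMA7A, a membrane-bound semaphorin, from 397 ± 44.4 to 101 ± 3.27 TPM.

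Transcription factors of neural cells were lower more often than higher. Of 29 tested neural and glial transcription factors 9 were lower and 1 was higher, with a median of -0.38. SOX9, a factor of glia and cartilage, had 2.48, 2.4 and 1.75 TPM in Diff libraries and 45.6, 37.7 and 50.1 TPM in U87. NR2F2 and NR2F1, the COUP nuclear receptors, had 27.3 ± 1.02 and 13 ± 0.488 TPM against 177 ± 3.54 and 46.9 ± 4.39 TPM. The factor that rose was POU3F2, also called BRN2, with 6.61, 5.06 and 7.76 TPM against 0.154, 0.207 and 0.181 TPM. Of 17 tested neuronal markers 5 were higher, BEX1 among them, and 5 were lower. MAP2, a dendritic microtubule protein, rose from 7.95 ± 1.14 to 21.7 ± 1.02 TPM, and GAP43, a growth cone protein, was at 3.76 ± 0.333 against 9.37 ± 1.98 TPM, a call lost without U87 replicate 3. RBFOX3, DCX and STMN2, defining neuronal markers, did not exceed 0.164 TPM in any of the 6 libraries. TUBB3, a neuronal marker that the study examined as protein, was at 5.22 against 3.74 TPM. SYT1 was at 5.49 against 2.99 TPM. Neither gene overlapped between the lines, and neither was called. The 7 neuron markers summed to 35.3 to 37 TPM in Diff libraries and 22.6 to 25 TPM in U87. Of the glioma markers, FABP7, a fatty acid binding protein of radial glia, rose, with 3.27, 2.53 and 2.77 TPM in Diff libraries against 0.546, 0.986 and 0.662 TPM in U87 (log2 fold change 1.16, limma adjusted p = 0.000472). NES, nestin, fell from 33 ± 2.22 to 13.5 ± 1.02 TPM, and CD44 was at 296 ± 9.43 against 405 ± 12.2 TPM (log2 fold change -0.45). GFAP, the astrocyte filament, was at 0.909 ± 0.137 against 2.29 ± 0.282 TPM and OLIG2 at 5.37 ± 0.672 against 7.27 ± 0.916 TPM (limma adjusted p = 0.0707), neither of them called. SOX2 and PROM1 stayed under 0.24 TPM, and S100B, which did not pass the filter, was at 0.617 TPM against 0.101 TPM. Fibroblast markers were present in each line, as is usual for mesenchymal glioblastoma cells, and summed to 499.5 to 507 TPM in Diff libraries and 745 to 883 TPM in U87. VIM, which fell, lies in the same lower stretch of chromosome 10 as ITGB1, with a local median of -0.89. Of 21 HOX genes 5 were higher and 1 lower. HOXC8 rose from 1.23 ± 0.344 to 14.4 ± 1.2 TPM and HOXA5 from 2.28 ± 0.162 to 13.4 ± 1.6 TPM, the latter in a part of chromosome 7 with a local median of 0.60.

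Growth and DNA repair genes had few calls. In 66 tested genes of DNA damage signaling and repair limma called 0 in either direction (38 at an unadjusted p under 0.05, which 47.6% of all genes reached), with a median of 0.09. At adjusted p alone 22 were higher and 8 lower, and 10 of the 15 signaling genes were higher, against 18.8% of all genes. ATM, the kinase that senses double-strand breaks, was named after its value was seen because the study examined its protein. It had 12.2, 11.1 and 11.2 TPM in Diff libraries and 5.79, 5.37 and 5.27 TPM in U87, so that the lines did not overlap, with a log2 fold change of 0.95 (standard error 0.0995, limma adjusted p = 8.94e-05). ATM lies in the higher part of chromosome 11, where the local median was 0.64. The fold passed 1 under other settings, at 1.06 with a pseudocount of 0.1 and 1.02 with TPM rescaled without mitochondrial and RN7S genes. H2AX was at 204 ± 11.2 against 155 ± 13 TPM (log2 fold change 0.39, limma adjusted p = 0.022) in the same part. Of 59 cell cycle genes 1 was lower, the inhibitor CDKN2D (17.5 ± 4.21 to 5.56 ± 1.25 TPM), and 0 were higher. Of 28 tested genes of G2 and mitosis 0 were called by limma, while 16 were lower and 1 was higher at adjusted p alone (lower in 21.1% of all genes). At an unadjusted p under 0.05 there were 18, 26 had a log2 fold change below zero, and the median was -0.36. TPX2, a spindle factor, was at 201 ± 8.98 against 362 ± 23.7 TPM, UBE2C at 302 ± 8.7 against 454 ± 16.3 TPM, and CCND1, cyclin D1, at 242 ± 8.16 against 387 ± 26.4 TPM.

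Among 38 genes of p53 and its targets 8 were higher and 4 lower. SPATA18, which acts in mitochondrial quality control, had 21.4, 20.2 and 20.8 TPM in Diff libraries and 1.3, 1.36 and 1.58 TPM in U87, and EDA2R, a death receptor of the TNF family, had 36.9, 31.6 and 33.1 TPM against 3.63, 4.15 and 3.29 TPM. Their libraries did not overlap between the lines, with log2 fold changes of 3.17 and 2.90 (limma adjusted p = 6.95e-08 and 1.13e-07). BTG2, an antiproliferative gene, rose from 2.67 ± 0.332 to 11.9 ± 0.658 TPM. CDKN1A, the p21 inhibitor, was at 233 ± 1.76 against 157 ± 9.52 TPM (log2 fold change 0.57) and BAX at 89.7 ± 4.81 against 56.5 ± 3.18 TPM (0.66), both short of a call. TP73, a p53 relative, had 0, 0.0404 and 0 TPM against 5.6, 5.03 and 5.58 TPM. In the BCL2 family, HRK, a BH3-only death activator, had 23.8, 21.3 and 23.9 TPM against 0.11, 0.0421 and 0.0924 TPM, and BCL2A1, a survival protein, rose from 0.44 ± 0.315 to 5.62 ± 0.43 TPM. BCL2, named after its value was seen because its protein was studied, had 2.76, 2.66 and 2.96 TPM against 1.24, 1.22 and 0.994 TPM. Its log2 fold change of 0.82 (standard error 0.127, limma adjusted p = 0.000932) was short of a call, but was 1.21 and called with a pseudocount of 0.1. MCL1, a survival protein of higher level, was at 99.9 ± 1.99 against 163 ± 11 TPM (-0.70).

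Ion channels and receptors set how a cell answers charge, ligands and second messengers. Of 82 tested ion channel genes 18 were higher and 9 lower. KCNK15, a potassium channel gene, had 10.5, 8.8 and 10.6 TPM in Diff libraries and 0.06, 0.229 and 0.0504 TPM in U87, and GSCs had 0.259 TPM. GABRA3, a GABA receptor chain, fell from 32 ± 1.59 to 4.12 ± 0.898 TPM and KCNG1 from 16.4 ± 2.05 to 1.05 ± 0.0706 TPM. GUCY1A2, a chain of the nitric oxide receptor, rose from 0.616 ± 0.108 to 17.8 ± 0.917 TPM and PDE4A, a cAMP phosphodiesterase, fell from 8.98 ± 0.208 to 1.13 ± 0.138 TPM. Of 65 G-protein-coupled receptors 4 were higher (6.15%, near the 5.88% of all genes) and 11 lower (16.9%, against 6.72%). OPRK1, the kappa opioid receptor, had 20.3, 19.8 and 21.7 TPM against 0.612, 0.381 and 0.424 TPM, and S1PR1, a sphingosine-1-phosphate receptor, rose from 0.269 ± 0.201 to 6 ± 0.821 TPM. GPR39 and ADRA1B fell from 19.1 ± 3.41 and 25.2 ± 2.14 TPM to 0.673 ± 0.342 and 1.69 ± 0.439 TPM. Among 79 cytosolic ribosomal proteins limma called 0 (18 at an unadjusted p under 0.05), with a median of 0.09.

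Genes that were off in one line and on in the other were set apart by level: a mean under 0.5 TPM in the first and over 5 TPM in the second. This choice uses the contrast itself, so the genes are described without a test. Diff cells had 103 genes switched on, 39 of them protein-coding, and 79 switched off, 40 of them protein-coding. The rule uses mean levels alone and does not require a call. ENSG00000256353, counted as switched off, overlapped between the lines, with 0, 12 and 3.52 TPM in U87, and was not called. Short RNA genes with a wide spread were also admitted, such as MIR603 with 3.11, 11.9 and 1.31 TPM in U87. Of the switched-on genes 66 also exceeded 5 TPM in GSCs (64.1%), and of the switched-off genes 4 did (5.06%). The share over 5 TPM in GSCs was 59.7% of all tested genes, 33.4% of genes under 0.5 TPM in U87 and 89.6% of genes over 5 TPM in U87. Of 77 genes switched on with a RefSeq position, 41 had another such gene within 500 kb (53.2%), against 2 of 55 genes switched off (3.64%). Of these 41, 15 lay in 1 run on chromosome 19 and 5 in 1 run on chromosome 1, described below. The share among all tested genes is not given, so 53.2% has no background. Tandem paralogs and antisense partners, which can share reads, contribute to the first count.

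The longest run was the pregnancy-specific glycoprotein (PSG) cluster on chromosome 19, from 42654152 to 43097360 on GRCh38.p14. PSGs are immunoglobulin-like proteins that the placenta secretes in quantity. All 15 tested genes within the run were switched on, and all 10 tested PSG genes of the list were called higher. PSG3 had 18.4, 15.6 and 17.6 TPM in Diff libraries and 0.133, 0 and 0 TPM in U87, and PSG8 had 10.8, 9.92 and 11.9 TPM against 0.0738, 0 and 0 TPM. PSG1 had 17.2, 15.1 and 15.3 TPM against 0.426, 0.262 and 0.23 TPM. PSG4, named after its value was seen, was already at 2.61 ± 0.214 TPM in U87 and rose to 24 ± 0.894 TPM. GSC means were above Diff means for all 10 PSG genes, with 42.1 TPM for PSG3 and 43.7 TPM for PSG1. PSG genes are close paralogs, so single values depend on how multiply mapped reads were counted, while the summed level of the PSG list, 106 to 123 TPM against 4.86 to 5.61 TPM, depends on this less.

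**Figure D3:**
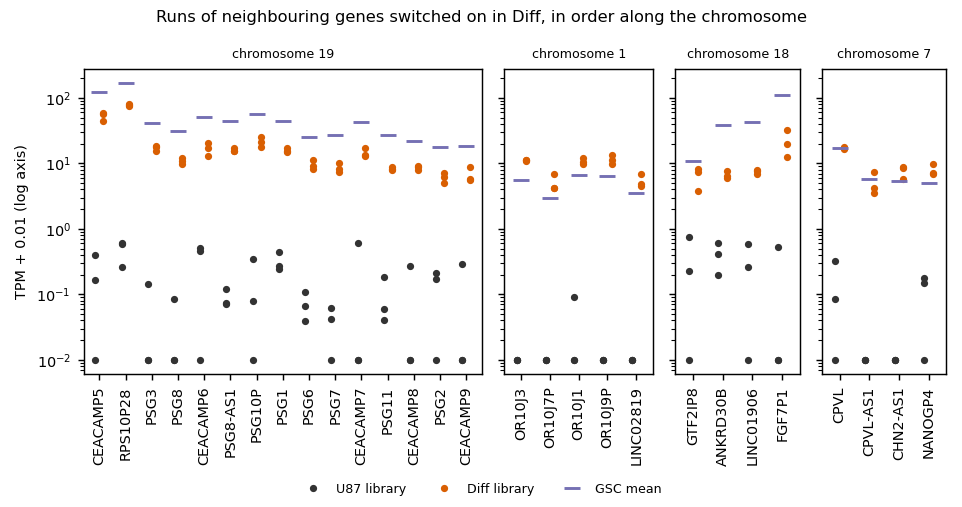
TPM plus 0.01 on a log axis for the 4 longest runs of neighbouring genes switched on in Diff cells, in their order along the chromosome; black points are U87 libraries, orange points Diff libraries, purple dashes GSC means. U87 libraries stay under 1 TPM and Diff libraries above 3 TPM, and GSC means lie above Diff cells on chromosomes 19 and 18 and below them in the run on chromosome 1.

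Other runs held genes of unrelated kinds. On chromosome 1, from 159313570 to 159490029, the olfactory receptor OR10J1 and its neighbours rose together, with OR10J1, named after its value was seen, at 9.7, 10.4 and 12.1 TPM against 0, 0.0811 and 0 TPM. A separate place on chromosome 1 held the epidermal barrier genes FLG, HRNR and FLG2, whose large repeat-rich proteins bind keratin in skin. FLG and HRNR were over 0.5 TPM in U87 and so did not count as switched on. The antisense gene FLG-AS1 spans all of them and was switched on, from 0.128 ± 0.0522 to 7.68 ± 0.506 TPM. The strand setting of the counting is not given, so reads shared with FLG-AS1 cannot be set apart. FLG had 31.3, 32.6 and 33.7 TPM in Diff libraries and 0.554, 0.485 and 0.534 TPM in U87, and HRNR had 31.1, 32.3 and 30.5 TPM against 0.94, 0.554 and 0.657 TPM. Unlike the PSGs they were also low in GSCs, at 0.573 and 1.14 TPM, which is below Diff cells in each case. FLG2 rose from 0.046 ± 0.0155 to 6.13 ± 0.565 TPM. The 5 epithelial markers summed to 2.52 to 4.28 TPM in Diff libraries and 5.86 to 7.09 TPM in U87, and KRT8, a keratin of simple epithelia, was called lower, at 0.691 TPM against 3.6 TPM. On chromosome 7 the run of CPVL, a carboxypeptidase gene, had CPVL at 17.2, 17.8 and 16.3 TPM against 0.317, 0 and 0.0759 TPM. MORC1, a germline gene on chromosome 3, had 26.5, 20.5 and 21.7 TPM against 0.403, 0.5 and 0.27 TPM. Among 5 tested cancer-testis genes MORC1 and TDRD9 rose and 3 MAGEA genes fell, MAGEA6 from 18.5, 16.6 and 21.7 TPM to 0, 0.0746 and 0.15 TPM.

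CpG content of promoters was also counted. In CpG islands, as background, the ratio of observed to expected CpG stays above 0.6. Promoters over this ratio made up 22 of 29 switched-off protein-coding genes (75.9%) and 15 of 28 switched-on ones (53.6%), against 81.7% of 10126 tested genes. Genes under 0.5 TPM in U87, the group from which switched-on genes come, had 57%, and genes over 5 TPM in U87, the group of switched-off genes, had 85.9%. Only 71.8% and 72.5% of the switched genes had a promoter in the table, under the 80% that a full comparison would need, so this check is void as a comparison and is given as a description. DNA methylation was not measured. Median ratios were 0.73 for genes switched on and 0.79 for genes switched off. The examples below lie further apart, with 0.14 for PSG3 and 0.06 for FLG against 0.87 for GJB2 and 0.79 for TIMP3. Other genes switched on, such as HRK and MORC1, had 0.82 and 0.9. The promoters of PSG3 (chr19:42740432-42740731, minus strand, 3 CpG) and FLG (chr1:152325190-152325489, minus, 1 CpG) are shown for genes switched on or raised from under 1 TPM, and those of GJB2 (chr13:20192889-20193188, minus, 33 CpG) and TIMP3 (chr22:32801455-32801754, plus, 31 CpG) for genes switched off, with each CG in capitals.
PSG3: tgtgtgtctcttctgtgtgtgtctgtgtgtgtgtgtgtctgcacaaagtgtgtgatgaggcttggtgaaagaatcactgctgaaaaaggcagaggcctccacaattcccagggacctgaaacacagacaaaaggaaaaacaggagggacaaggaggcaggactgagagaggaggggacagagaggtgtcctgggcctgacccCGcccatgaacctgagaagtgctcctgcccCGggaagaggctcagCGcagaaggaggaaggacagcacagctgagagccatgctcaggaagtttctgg
FLG: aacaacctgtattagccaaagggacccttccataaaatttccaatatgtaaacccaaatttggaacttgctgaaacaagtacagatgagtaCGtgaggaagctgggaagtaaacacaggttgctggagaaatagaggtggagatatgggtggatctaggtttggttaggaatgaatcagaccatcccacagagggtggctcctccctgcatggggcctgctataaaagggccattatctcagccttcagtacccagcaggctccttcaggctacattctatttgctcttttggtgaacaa
GJB2: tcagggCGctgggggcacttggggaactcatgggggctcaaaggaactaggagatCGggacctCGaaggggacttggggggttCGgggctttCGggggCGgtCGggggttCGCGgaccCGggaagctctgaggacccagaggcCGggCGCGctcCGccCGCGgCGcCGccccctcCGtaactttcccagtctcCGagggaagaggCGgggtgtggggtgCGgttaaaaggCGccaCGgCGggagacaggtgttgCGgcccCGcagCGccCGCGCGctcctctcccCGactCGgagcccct
TIMP3: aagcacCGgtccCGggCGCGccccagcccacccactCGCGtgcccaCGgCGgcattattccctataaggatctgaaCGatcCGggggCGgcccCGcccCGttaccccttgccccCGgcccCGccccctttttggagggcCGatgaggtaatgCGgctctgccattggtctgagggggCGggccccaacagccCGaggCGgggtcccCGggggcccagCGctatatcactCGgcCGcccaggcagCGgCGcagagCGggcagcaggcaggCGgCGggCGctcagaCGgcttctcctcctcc

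Neighbouring genes shifted together over long stretches as well, by smaller amounts. For each of 12278 tested protein-coding genes the median log2 fold change of the 25 genes on each side was taken. On chromosome 7 it stayed above 0.3 over stretches of 463 and 67 genes, with medians of 0.48 and 0.45, and on chromosome 11 over 186 genes from ANKRD42 to ACAD8, with a median of 0.54. It stayed below -0.3 over 83 genes of chromosome 8 from NAT1 to LSM1 (median -0.94), 106 genes of chromosome 10 from ZMYND11 to ZNF487 (-0.85), 39 genes of chromosome 15 (-0.84), 59 genes of chromosome 2 (-0.76) and 89 genes of chromosome 1 (-0.45). Over the same stretches GSCs differed from the same U87 libraries by medians of 0.48, 0.41 and 0.62 and of -0.97, -0.76, -0.48, -0.70 and -0.79, in that order. Gene copy number was not measured, and its part was not tested. Of genes called higher, 13.8% lay where the local median exceeded 0.3, against 5.86% of all genes, and of genes called lower, 15.8% lay where it was below -0.3, against 3.42%. With the local median subtracted, 1303 genes were called higher and 1439 lower, and the counts were 30 lower for hypoxia genes, 13 lower for glycolysis, 17 lower for amino acid supply, 12 higher for lysosome and autophagy and 5 lower for antigen presentation. This setting was chosen after seeing the data.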

How the data were processed

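RNA of U87, GSC and Diff cells was sequenced in 3 libraries each. Per the labels, ribosomal RNA was removed before stranded library preparation, whereas the study's methods name oligo(dT) selection, and which applied is not settled. The submitters' processing notes name FastQC 0.11.9, Trimmomatic 0.39, HISAT2 2.2.1, featureCounts 2.0.5 and R 4.2.0 with build GRCh38. The authors deposited log2(TPM + 1) per gene, so no counts or depths were at hand.

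The deposited log2 values of all 9 libraries were fitted with limma 3.58.1 in R 4.3.3 (cell line as the factor, moderated variances with a trend), without a replicate block. Genes had a mean TPM over 1 in the 6 libraries, and p-values were adjusted by Benjamini-Hochberg over all of them. Members and gene lists were chosen with earlier results of these data known. Named genes were the 15 protein-coding genes with the largest rise and fall whose lines did not overlap, the 10 with the largest change in TPM each way, up to 6 called and 3 abundant uncalled members of each of 53 lists, up to 10 switched genes each way, and cell type markers. Exceptions are stated in the text. Names were matched to RefSeq GRCh38.p14 for 39770 of 60606 genes. The fit was tested on simulated data. Alternatives covered scaling, pseudocount, filters, thresholds, the replicate block and each library left out. Summaries used Python 3.11.15 with pandas 2.3.3, numpy 2.4.6, scipy 1.17.1 and matplotlib 3.10.9. A few single-gene results are not reported here.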

Additional observations from a re-analysis of the deposited data

How the results depend on the processing

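Counts over all genes, 1333 higher and 1524 lower, became 697 and 842 with a mean TPM over 5, 538 and 608 with a pseudocount of 5, 4254 and 4789 by adjusted p alone, 350 and 330 past a log2 fold change of 2, and 701 and 728 among protein-coding genes. Higher calls made up 46.7% of all calls, 50.5% when quantiles were equalized (1473 against 1441) and 49.6% under median-ratio scaling (1404 against 1427). With 1 library left out they ranged over 1256 to 1366 higher and 1460 to 1567 lower, hypoxia genes over 29 to 30, glycolysis over 14 to 16, amino acid supply over 17 to 17, lysosome and autophagy over 10 to 13, PSGs over 10 to 10, antigen presentation over 5 to 7, switched-on genes over 99 to 110 and switched-off genes over 78 to 84. The difference in mitochondrial share ranged over 2.89 to 4.34 points. PSG calls numbered 4 with a mean TPM over 5, by the construction of that filter, and antigen presentation calls 4 with a pseudocount of 5. With limits of 1 and 10 TPM, 59 genes were switched on and 46 off. HIF1A, which was not called, ranged over -0.05 to 0.05 with 1 library left out, below zero without Diff replicate 1 (-0.05) and without U87 replicate 1 or 2 (-0.02 each).

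Replicate numbers did not pair the libraries: correlations of same-numbered deviations were -0.00345, -0.0481 and -0.0149, and a replicate block gave 1333 higher and 1521 lower genes. Of 167 genes checked singly, 147 kept their direction and call in each of the 16 settings that tested them, and the filter on a mean TPM over 5 tested 151 of them. A pseudocount of 5, which lowers the fold of low genes, ended 13 calls, quantile normalization those of GAPDH and LGALS1, and leaving out U87 replicate 3 those of CIITA, GAP43 and MMP14. Calls were gained for ATM, BCL2 and GFAP with a pseudocount of 0.1, and for ATM also after quantile normalization and without mitochondrial and RN7S genes. Without depths, the counting error of genes at a few TPM is unknown.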
